A study of Rattus norvegicus with 18 samples.

Results

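*Fgl2* and the galectin genes *Lgals1*, *Lgals3*, *Lgals8* and *Lgals9* were described in rat T cells reactive to myelin basic protein (T-MBP cells). The 5 genes were chosen by symbol, with their values in the KO and control libraries already known, and all 5 were found among the 32882 genes of each of the 3 tables. Bulk 3′ mRNA-seq, which reads the 3′ ends of transcripts, was performed on 18 libraries in 6 groups of 3. All were CD4+ T-MBP cells from the Lewis strain, sorted on day 3 after intravenous transfer into Lewis rats. The study asked which genes let such cells reach the central nervous system. Cells edited in *Ets1* were sorted from spinal cord parenchyma and from spleen, cells edited in *Grk2* from spleen, and each of these 3 groups had its own group of control cells. ETS1 is a transcription factor of lymphocytes, and GRK2 is a kinase that turns off G protein-coupled receptors. Control cells, labelled WT, had received a non-targeting (NT) guide RNA, and both kinds had been electroporated with Cas9 protein and guide. The age of the rats was not in the labels. The cells were lines expanded from an immunized rat, and the KO cells were edited pools and not clones. According to the study's methods, KO cells carried EGFP and control cells BFP, so genotype and fluorophore cannot be told apart. Spleen cells were enriched for CD4+ cells with a kit and parenchyma cells on a Percoll gradient, so tissue and isolation cannot be told apart. According to the paper, *Ets1* KO and control cells of the parenchyma had been transferred together into the same rats, and batches were corrected by animal where this applied. Nothing in the labels ties libraries to animals, and p-values speak only for these libraries. The p-values of limma rest largely on a variance trend fitted over all genes, and less on the spread of each gene between its own libraries.

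FGL2 is a relative of fibrinogen. As a membrane protein of macrophages and endothelium it can cleave prothrombin, and as a soluble protein secreted by T cells it dampens immune responses through inhibitory Fc receptors. Galectins are proteins that bind β-galactosides on glycoproteins; they are made without a signal peptide, leave cells by an unconventional route and crosslink receptors at the surface. Galectin-1, galectin-3 and galectin-9 are known for restraining activated T cells, and galectin-8 for marking damaged vesicles inside the cell.

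Between 898092 and 2248258 reads per library fell on genes. In the spleen *Ets1* comparison the KO libraries held 1909862 to 2248258 reads and the control libraries 898092 to 1213485, so depth and genotype cannot be told apart there. Replicate 3 of the spleen *Ets1* KO group stood apart from the other two, with a chi-square per degree of freedom of 9.66 and 10.0 against each of them and between 1.48 and 4.44 for all other pairs of a group. The log2 fold changes of the 5 genes in that comparison are therefore also given without replicate number 3. The 10 CD4 T cell markers summed to 3069 to 3847 RPM (reads per 1000000 reads on genes) in each library. Markers of myeloid cells and microglia, which also make FGL2 and galectins, summed to 24.6 to 60.5 RPM in the parenchyma, 14.2 to 19.1 in the spleen libraries of the *Ets1* experiment and 4.19 to 7.63 in those of the *Grk2* experiment. Of the 20 genes on that list, 16 had a read in each parenchyma group. *Lyz2* was at 11.6 to 22.1 RPM in parenchyma control libraries and 14.2 to 33.7 RPM in parenchyma KO libraries. *Cd163*, *Mrc1* and *Adgre1*, from the same list, had no read in any of the 18 libraries. B cell markers reached at most 9.89 RPM. NK cell markers summed to 47.9 to 86.3 RPM in the *Ets1* experiment and 158 to 216 in the *Grk2* experiment. *Klrk1*, *Ncr3* and *Klrd1* had reads in every group, *Fcgr3a* in some groups, and *Ncr1* and *Klrb1* in none. The part of these markers in the results was not tested. Erythroid markers summed to 23.1 to 48.3 RPM in the spleen libraries of the *Ets1* experiment and to at most 2.39 in all others. The *Grk2* transcript was lower in *Grk2* KO cells by a log2 fold change of -1.22 ± 0.13 (SE; adjusted p = 1.8e-12, limma). The *Ets1* transcript was not called in *Ets1* KO cells of either tissue, with log2 fold changes of 0.09 in the parenchyma and -0.06 in the spleen. Reads from the 3′ end do not show small edits elsewhere in a transcript. According to the study's methods, the editing of its single KO lines was checked in DNA before they were used.

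Normalized counts below are the reads of a gene divided by the size factor of its library. Log2 fold changes are KO minus control on log2(normalized count + 1), with the replicate number as a block, and are called where the Benjamini-Hochberg adjusted p of limma over all genes of the table is under 0.05. Because the 5 genes were chosen with these contrasts known, their values are a description and carry no p. In the parenchyma 1 of 5 genes was called (*Lgals9*, lower in KO), beside 5.23% of the 7002 genes tested, 2.27% higher and 2.96% lower in KO. In the spleen with *Ets1* editing 1 of 5 was called (*Fgl2*, higher in KO), beside 2.22% of 6979 genes, 1.02% higher and 1.2% lower. In the spleen with *Grk2* editing 2 of 5 were called (*Fgl2* and *Lgals3*, both higher in KO), beside 1.56% of 6985 genes, 0.931% higher and 0.63% lower. Nothing is read from these counts, since the contrasts chose the genes. An unadjusted p under 0.05 was found for 16.9%, 14.1% and 10.4% of genes in the same order. All calls named here and below were lost when the variance was not fitted to the expression level (eBayes without trend), which left 3, 0 and 0 genes called. The median log2 fold change of all genes tested lay between -0.03 and 0.02 in these comparisons. All 5 genes passed the minimum mean normalized count of 10 in every table.

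**Figure D1:**
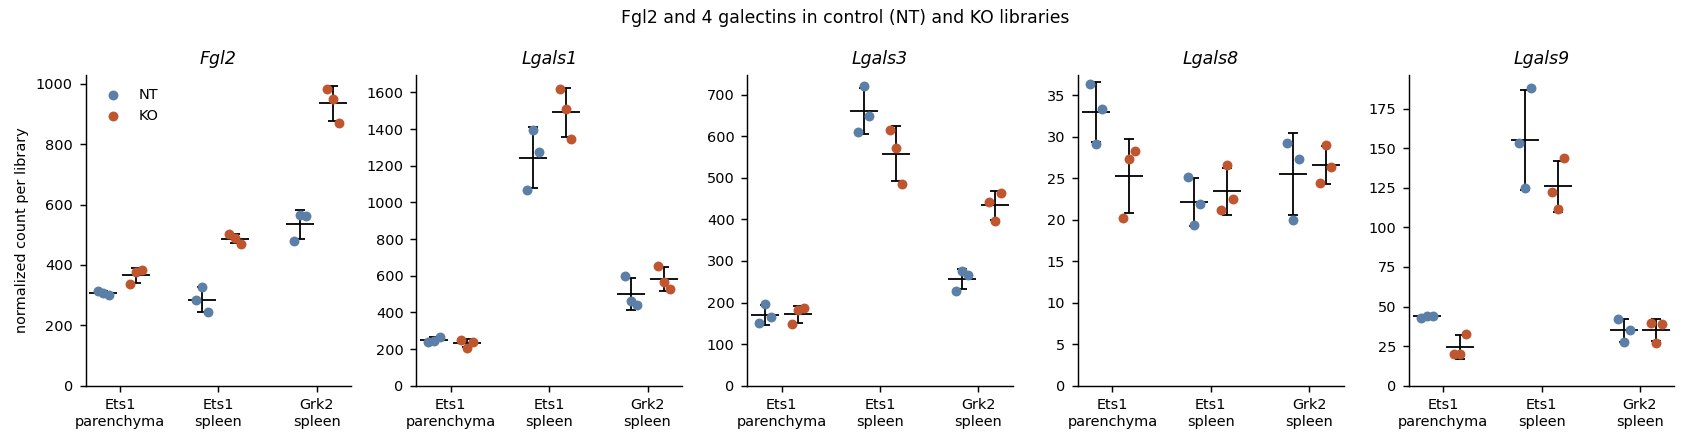
Normalized count (y axis, from 0) of each gene in every library of the 3 comparisons (x axis), with control (NT) libraries in blue and KO libraries in orange; the black bar is the mean and the whiskers the SD of 3 libraries. *Fgl2* KO libraries sit above the control libraries in each comparison, and *Lgals3* KO libraries do so with *Grk2* editing.

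*Fgl2* (ENSRNOG00000012881, Rnor_6.0 chr4:10323606-10329241, minus strand) was higher in KO than in control libraries in all 3 comparisons, with no overlap between the groups. KO libraries lay wholly above control libraries for 7.87% of genes tested in the parenchyma, 8.04% in the spleen with *Ets1* editing and 7.59% with *Grk2* editing. In the parenchyma its normalized counts were 315, 308 and 299 in the control libraries and 337, 377 and 382 in the *Ets1* KO libraries. The gap between the highest control and the lowest KO library was small there, and the log2 fold change was 0.25 ± 0.10 (SE). Myeloid markers summed to 24.6 to 47.3 RPM in those control libraries and to 41.1 to 60.5 in the KO libraries, and their part in the difference was not tested.

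In the spleen the *Fgl2* counts were 282, 327 and 244 in the control libraries of the *Ets1* experiment and 503, 489 and 470.2 in the *Ets1* KO libraries. All KO libraries were well above all control libraries, and the log2 fold change was 0.78 ± 0.12 (SE), or 1.72-fold. Without replicate number 3 it was 0.71. In RPM, which does not use the size factors, the control libraries ran from 174 to 253 and the KO libraries from 335 to 384. With *Grk2* editing the *Fgl2* counts were 480.2, 564 and 561 in control libraries and 984, 951 and 871 in KO libraries. All 3 KO libraries were again well above the controls, with a log2 fold change of 0.81 ± 0.07 (SE), or 1.75-fold. The 2 spleen comparisons share no library. The log2 fold changes of *Fgl2* in the parenchyma and the spleen stand side by side here, and their difference was not tested.

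*Lgals1* (ENSRNOG00000009884, chr7:120153183-120156289, plus strand) encodes galectin-1, a small galectin that acts as a pair of identical subunits and binds CD45, CD43 and CD7 on T cells. In the parenchyma its normalized counts were 241, 242 and 266 in control libraries and 251, 206 and 237 in *Ets1* KO libraries. In the spleen they were 1067, 1395 and 1272 in control libraries and 1617, 1508 and 1346 in *Ets1* KO libraries, and with *Grk2* editing 598, 460.0 and 441 in control and 651, 566 and 527 in KO libraries. Control and KO libraries overlapped in each comparison. The log2 fold changes were -0.11 ± 0.11, 0.26 ± 0.12 and 0.23 ± 0.08 (SE), none of them called. In the *Ets1* spleen the value was 0.36 without replicate number 3 and 0.10 without replicate number 1.

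*Lgals3* (ENSRNOG00000010645, chr15:24141650-24165537, plus strand) encodes galectin-3, the galectin with an added tail by which it forms larger assemblies on branched glycans. With *Grk2* editing its normalized counts were 229, 276 and 265 in control libraries and 441, 397 and 464 in KO libraries. The groups were separate, and the log2 fold change was 0.76 ± 0.09 (SE), or 1.69-fold. With *Ets1* editing control and KO libraries overlapped in both tissues. The spleen counts were 610.4, 719.6 and 649 in control and 616, 572 and 486 in *Ets1* KO libraries, a log2 fold change of -0.25 ± 0.11 (SE), and -0.16 without replicate number 3. The parenchyma counts were 150.4, 197 and 164 in control and 148, 181 and 186 in KO libraries, a log2 fold change of 0.01 ± 0.12 (SE). The difference between the *Grk2* and the *Ets1* value was not tested.

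*Lgals9* (ENSRNOG00000012681, chr10:64737021-64760201, plus strand) encodes galectin-9, a galectin with a pair of sugar-binding domains on one chain and a ligand of TIM-3. In the parenchyma its normalized counts were 43.0, 44.2 and 44.2 in control libraries and 20.2, 20.2 and 32.9 in *Ets1* KO libraries. All KO libraries were below all control libraries, as for 10.5% of genes tested there, and the log2 fold change was -0.85 ± 0.24 (SE), or 0.55-fold. These values rest on 20 to 47 reads per library, and the call was lost without replicate number 1 and without replicate number 2, with log2 fold changes between -1.07 and -0.73 as each number was left out. In the spleen the counts were 153, 125 and 188 in control and 123, 112 and 144 in *Ets1* KO libraries, which overlapped, with a log2 fold change of -0.29 ± 0.14 (SE), and -0.24 without replicate number 3. With *Grk2* editing they were 42.3, 27.7 and 35.4 in control and 39.3, 26.9 and 39.1 in KO libraries, a log2 fold change of -0.00 ± 0.22 (SE). The related gene *Lgals5* had 0 reads in all 18 libraries, which allows up to 3.34 RPM in the shallowest. Whether reads shared between these near relatives were left uncounted for both was not tested.

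*Lgals8* (ENSRNOG00000018046, chr17:66487456-66511870, minus strand) encodes galectin-8, which recruits autophagy receptors to broken endosomes. It had few reads, between 14 and 43 per library. In the parenchyma its normalized counts were 36.4, 29.2 and 33.4 in control and 20.2, 27.3 and 28.3 in *Ets1* KO libraries. These groups did not overlap either, but the gap was under 1 count and the log2 fold change, -0.38 ± 0.25 (SE), was not called. In the spleen the counts were 25.2, 19.4 and 21.9 in control and 21.2, 26.7 and 22.5 in *Ets1* KO libraries, and with *Grk2* editing 29.3, 19.95 and 27.3 in control and 24.5, 29.0 and 26.4 in KO libraries. The groups overlapped in both, with log2 fold changes of 0.08 ± 0.30 and 0.07 ± 0.26 (SE). The first was 0.10 without replicate number 3, and both changed sign without replicate number 2, to -0.10 and -0.15.

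**Figure D2:**
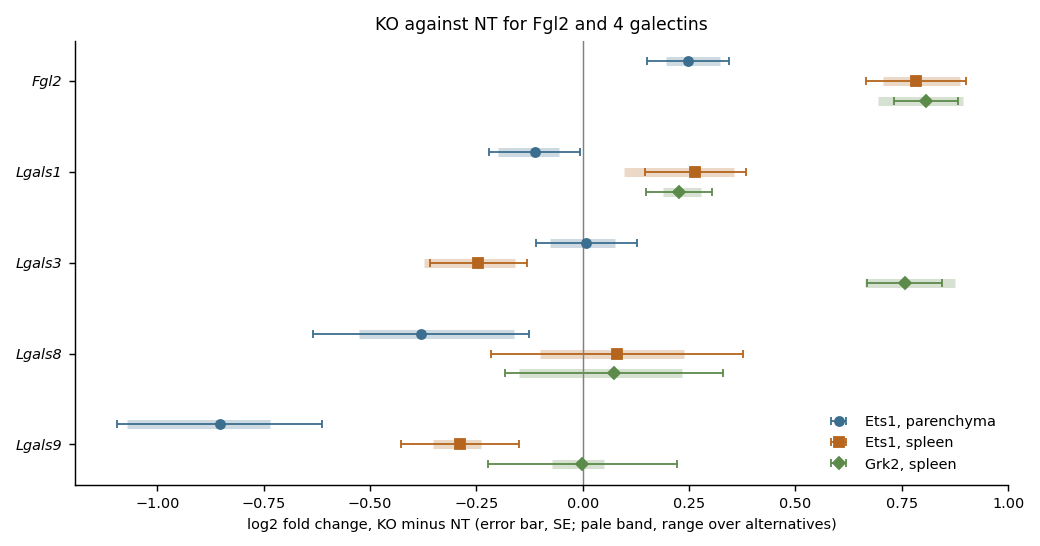
Log2 fold change of KO against control (x axis) for each gene (y axis) in the 3 comparisons; error bars are the SE of the limma fit and pale bands the range over the alternative settings. *Fgl2* lies right of 0 throughout, at 0.25, 0.78 and 0.81, *Lgals3* at 0.76 with *Grk2* editing, and *Lgals9* at -0.85 in the *Ets1* KO parenchyma.

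RefSeq promoter sequences, 250 bases before to 50 after the gene start in the GRCr8 build, were at hand for *Lgals8* and *Lgals9*, 2 of the 5 genes. They are shown because these were the promoters at hand and one of the edited genes encodes a factor known to bind around the letters GGAA; whether ETS1 binds either promoter was not tested. Capitals mark GGAA on either strand (GGAA or TTCC). The positions are chr17:62719603-62719902 (plus strand) for *Lgals8* and chr10:64428021-64428320 (minus strand) for *Lgals9*; the strands are opposite to those of Rnor_6.0 in the tables.
Lgals8: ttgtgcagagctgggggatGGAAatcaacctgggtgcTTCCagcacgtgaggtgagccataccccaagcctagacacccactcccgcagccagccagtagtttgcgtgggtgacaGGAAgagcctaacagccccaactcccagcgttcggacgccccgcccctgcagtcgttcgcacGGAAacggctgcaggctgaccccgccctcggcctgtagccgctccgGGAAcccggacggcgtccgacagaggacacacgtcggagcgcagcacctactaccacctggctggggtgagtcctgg
Lgals9: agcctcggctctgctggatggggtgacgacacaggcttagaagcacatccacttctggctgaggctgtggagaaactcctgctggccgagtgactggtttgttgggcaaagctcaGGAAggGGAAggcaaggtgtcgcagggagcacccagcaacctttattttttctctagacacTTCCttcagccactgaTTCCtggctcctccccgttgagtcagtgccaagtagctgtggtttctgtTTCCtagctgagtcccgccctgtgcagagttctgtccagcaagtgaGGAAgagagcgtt
GGAA was present 5 times in the *Lgals8* and 6 times in the *Lgals9* window, where 95.8% of 33469 promoters of the same length held at least 1 match and the median number was 3. The longer ETS site CCGGAAGT, present in 3.81% of promoters, was in neither window. The AP-1 letters TGANTCA were found once in *Lgals9* (7.33% of promoters) and the E-box CACGTG once in *Lgals8* (6.42%). The STAT letters TTCNNNGAA (8.87%) and the TATA letters TATAAA (14.2%) were in neither. All were searched on both strands; these matches describe letters and not binding, and CCGGAAGT contains GGAA.

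The levels of control cells differed between tissues and between the 2 spleen groups. They were compared in RPM, because each table had been normalized separately, and as a description. Bulk levels cannot tell fewer expressing cells from less RNA per cell. Among 6207 genes with enough reads in all tables, the median log2 difference between spleen and parenchyma controls was 0.10 for the spleen group of the *Ets1* experiment and 0.11 for that of the *Grk2* experiment, and values are read against that shift. All 6 spleen control libraries were above all 3 parenchyma control libraries for 14.5% of these genes, and *Lgals1* and *Lgals3* were among them. *Lgals1* was at 176 ± 11.5 RPM (SD, n = 3) in the parenchyma, 929 ± 140 in the spleen of the *Ets1* experiment and 385 ± 73.0 in that of the *Grk2* experiment. *Lgals3* was at 120 ± 14.4, 493 ± 55.8 and 197 ± 17.2 in the same order. On the log2 scale *Lgals1* was higher in the spleen by 2.40 and 1.13, and *Lgals3* by 2.04 and 0.72. Across the same libraries the myeloid marker sum was highest in the parenchyma, the erythroid sum was 23.1 to 48.3 RPM in the *Ets1* experiment's spleen libraries and at most 2.39 elsewhere, and the NK sum was highest in the *Grk2* experiment's spleen libraries. The part of these markers in the levels was not tested.

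*Lgals9* and *Fgl2* separated the 2 spleen control groups instead. *Lgals9* was at 115 ± 18.5 RPM in the spleen controls of the *Ets1* experiment, against 30.8 ± 0.46 in the parenchyma and 27.0 ± 5.85 in the spleen controls of the *Grk2* experiment, and the last pair overlapped. *Fgl2* was at 411 ± 31.3 in the spleen controls of the *Grk2* experiment, against 213 ± 39.7 in those of the *Ets1* experiment and 216 ± 7.96 in the parenchyma, the latter pair overlapping. From the *Ets1* to the *Grk2* experiment, spleen control levels thus differed by 0.95 for *Fgl2*, -1.27 for *Lgals1*, -1.32 for *Lgals3* and -2.09 for *Lgals9* on the log2 scale, each with no overlap of libraries. That is 4 of 5 genes, where the libraries of the 2 groups were separate for 30.4% of genes in one direction and 29.7% in the other. *Lgals8*, at 16.5 ± 2.14 and 19.6 ± 3.83, overlapped between the 2 spleen groups. Its level in parenchyma controls was 23.3 ± 3.03 RPM. The log2 difference of spleen from parenchyma was -0.49 for the *Ets1* experiment, with no overlap of libraries, and -0.25 for the *Grk2* experiment, with overlap. How many of all genes were separate in that way was not counted. Both spleen groups were control T-MBP cells, and the experiment they came from cannot be told apart from other differences between them.

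Ordered over the 6 groups, *Fgl2* was highest in *Grk2* KO spleen cells, at 722 ± 48.8 RPM. The *Grk2* experiment's spleen controls (411) and *Ets1* KO spleen cells (365 ± 26.1) came next and overlapped. *Ets1* KO parenchyma cells (258 ± 16.1) followed, apart from the groups next to them in the order. The parenchyma controls (216) and the *Ets1* experiment's spleen controls (213) overlapped at the bottom. Libraries of those spleen controls (174 to 253) also overlapped those of *Ets1* KO parenchyma cells (240 to 270). For *Lgals1* the order was *Ets1* KO spleen (1116 ± 142) and its controls, which overlapped, then *Grk2* KO spleen (449 ± 52.2) and its controls, which overlapped, then parenchyma controls and *Ets1* KO parenchyma (164 ± 17.4), which overlapped too. *Lgals3* ran from the *Ets1* experiment's spleen controls through *Ets1* KO (418 ± 64.5) and *Grk2* KO spleen cells (335 ± 26.2), each overlapping the next. The *Grk2* experiment's controls were separate below these, and parenchyma KO (121 ± 14.1) and control cells were lowest and overlapped. *Lgals9* in both spleen groups of the *Ets1* experiment (115 and 93.8 ± 8.46) was apart from the other 4 groups, which ran from 30.8 down to 17.3 ± 5.18 and overlapped with their neighbours. All neighbours overlapped for *Lgals8*, from 23.3 ± 3.03 in parenchyma controls to 16.5 in the *Ets1* experiment's spleen controls, though the highest and the lowest group did not overlap each other.

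**Figure D3:**
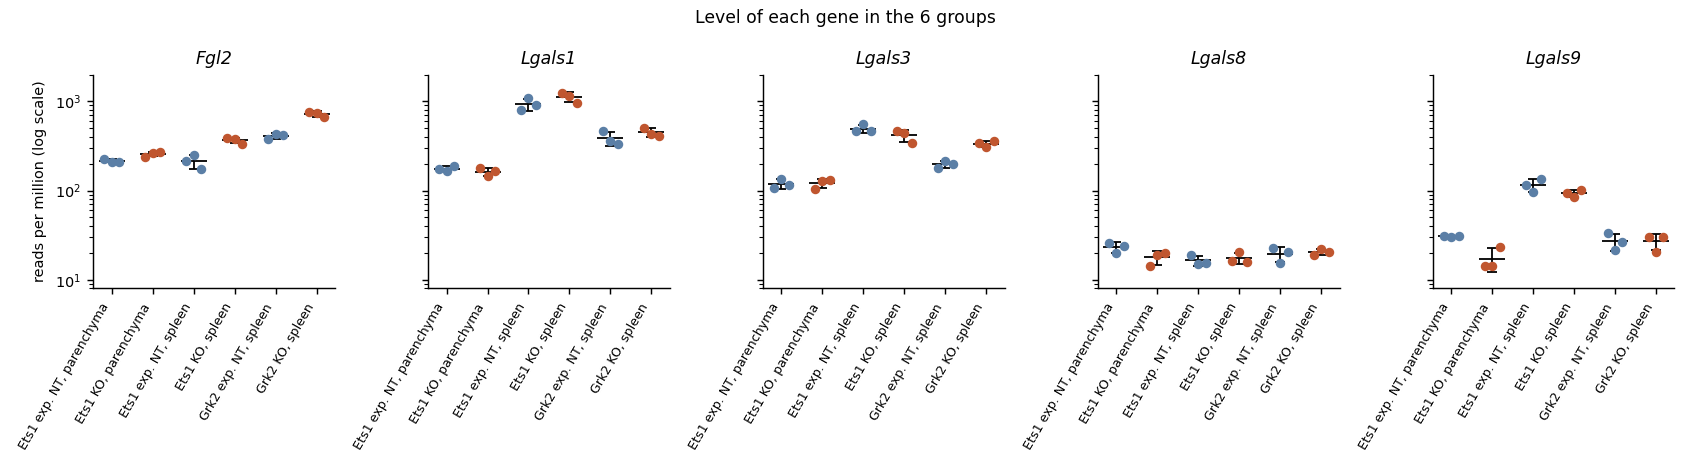
Level in RPM (y axis, log scale) of each gene in the 3 libraries of each of the 6 groups (x axis), with control libraries in blue and KO libraries in orange; bars are the mean and whiskers the SD. *Lgals1*, *Lgals3* and *Lgals9* have their highest group means in the spleen groups of the *Ets1* experiment, where *Lgals3* in KO libraries overlaps the *Grk2* KO spleen libraries. *Fgl2* is highest in *Grk2* KO spleen libraries, with a mean of 722, and *Lgals8* stays between 16.5 and 23.3 in all group means.

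Across the 18 libraries, which share tissue, experiment and genotype within groups, Pearson's r of log2(RPM + 1) was 0.94 between *Lgals1* and *Lgals3*, 0.85 between *Lgals1* and *Lgals9* and 0.78 between *Lgals3* and *Lgals9*. *Fgl2* followed none of them closely, with r between -0.27 and 0.29. Among the 6207 genes, the most alike to *Fgl2* were *S100a6* (r = 0.94), *Pfdn1* (0.92) and *Lpar6* (0.92). *S100a6*, a calcium-binding protein, was at 409 and 608 RPM in parenchyma control and KO cells, 448 and 942 in the spleen of the *Ets1* experiment and 818 and 1211 in that of the *Grk2* experiment. The most alike to *Lgals1* were *Atp2a3* (0.99), *Emp3* (0.98) and *Ppdpf* (0.98), to *Lgals3* *Ccnd3* (0.96), *Emp3* (0.95) and *Tubb4b* (0.95), and to *Lgals9* *Itgal* (0.97), *Tln1* (0.96) and *Arhgef18* (0.96). *Itgal* encodes the alpha chain of LFA-1, and *Tln1* encodes talin, which activates integrins. *Lgals8* had weaker neighbours, *Stag1* (0.74), *Tm2d1* (0.68) and *Ppp1r3d* (0.68). These values are a description of group differences over 18 libraries.

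The other genes listed with the galectin family were nearly silent, apart from the gene of the galectin-binding protein *Lgals3bp*, which is not itself a galectin. Of 8 such genes *Lgals2*, *Lgals5*, *Lgals12* and *Grifin* had no read in any library, and *Lgals4* had a read in 1 parenchyma control library. *Lgals7* ranged from 0 to 11.1 and *Lgalsl* from 0 to 4.28 RPM. *Lgals3bp*, a secreted glycoprotein that binds galectin-3, was the only one above the count minimum. Its normalized counts in control and KO libraries averaged 156 ± 4.10 and 138 ± 10.3 (SD) in the parenchyma, 85.6 ± 20.3 and 112 ± 6.68 in the spleen with *Ets1* editing, and 103 ± 29.5 and 79.4 ± 17.9 with *Grk2* editing. None of these was called (limma adjusted p = 0.50, 0.27 and 0.28), nor by edgeR or DESeq2, while 2 of the 3 had an unadjusted p under 0.05. None of 9 receptors of FGL2 and relatives of fibrinogen passed the count minimum. *Fcgr2b*, the inhibitory Fc receptor, had at most 2.27 normalized counts in the parenchyma and no read in the spleen libraries.

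Some of the surface partners of galectins were called. The partner lists, here and below, were chosen with earlier results of these data known. Nothing is read from the shares called, and the adjusted p-values are no test of the lists. Of the 22 counter-receptors, 17 were tested in the parenchyma, 4 rose and 2 fell in *Ets1* KO cells (6 of 17, beside 5.23% of all genes). *Tnfrsf9*, a costimulatory receptor that galectin-9 binds, had normalized counts of 239, 212 and 180 in control and 693, 743 and 877 in KO libraries. It rose by a log2 fold change of 1.87 ± 0.09 (SE; adjusted p = 6.6e-86, limma). This SE and p come from the variance trend over all genes. The log2 ratios of KO to control by replicate number were 1.53, 1.81 and 2.28. *Havcr2*, which encodes the galectin-9 receptor TIM-3, had 15.9, 10.3 and 9.83 in control and 36.4, 26.3 and 19.3 in KO libraries. It rose by 1.11 ± 0.32 (adjusted p = 0.014, limma), and the call was lost without replicate number 1, without replicate number 2 and with DESeq2. Myeloid markers summed to 24.6 to 47.3 RPM in these control and 41.1 to 60.5 RPM in these KO libraries, and their part in the rise was not tested. *Lgals9* itself was lower in the same KO libraries. *Lag3*, an inhibitory receptor that galectin-3 binds, rose from 240.8 to 261 counts in control to 349 to 399 in KO libraries (log2 0.58 ± 0.10; adjusted p = 7.2e-07, limma). *Il2ra*, the alpha chain of the IL-2 receptor, rose from 638 to 668 to between 958 and 1044 (0.62 ± 0.08; adjusted p = 1.9e-12, limma). *Cd44*, the hyaluronan receptor, was lower in KO cells (-0.59 ± 0.13; adjusted p = 4.8e-04, limma), as was *Lamp2*, a lysosomal membrane protein (-0.52 ± 0.12; adjusted p = 4.9e-04, limma). *Cd44* was not called with DESeq2, and *Lamp2* neither with DESeq2 nor without replicate number 1 or 2. The median log2 fold change of the 17 was 0.00, beside -0.03 over all genes.

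In the spleen none of the 14 counter-receptors tested was called in *Ets1* KO cells by limma, edgeR or DESeq2, and 1 (*Ctla4*) had an unadjusted p under 0.05. *Tnfrsf9*, *Havcr2* and *Lag3* were under the count minimum there, with at most 9.40 normalized counts in any spleen library. The *Ets1* KO effect on them could therefore not be compared between tissues. Their control levels differed, though each table was normalized separately. *Tnfrsf9* had 180 to 239 normalized counts in parenchyma controls and 0 in the *Ets1* experiment's spleen controls, and *Lag3* 240.8 to 261 and 3.28 to 9.40. With *Grk2* editing 3 of 15 rose and 1 fell, beside 1.56% of all genes. *Nrp1*, a coreceptor that galectin-1 binds, had 13.01, 23.3 and 23.3 normalized counts in control and 34.9, 49.7 and 64.6 in KO libraries (log2 1.29 ± 0.24; adjusted p = 8.7e-05, limma). *Cd44* rose by 0.42 ± 0.08 (adjusted p = 4.1e-04, limma), while it was lower in *Ets1* KO cells of the parenchyma; the difference between these comparisons was not tested. *Itgb1*, the integrin beta chain that galectins crosslink, rose by 0.36 ± 0.07 (adjusted p = 5.5e-05, limma) and *Il2ra* fell by 0.42 on the log2 scale (SE 0.10; adjusted p = 0.0051, limma). All of these calls were lost without replicate number 2. *Cd44* and *Il2ra* were also lost without replicate number 1 and without the block, and *Nrp1*, *Cd44* and *Il2ra* with DESeq2. The median log2 fold change of the 15 was 0.09, beside 0.02 over all genes. *Ptprc* and *Spn*, which encode CD45 and CD43, were not called in any comparison, with log2 fold changes between -0.05 and 0.17.

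**Figure D4:**
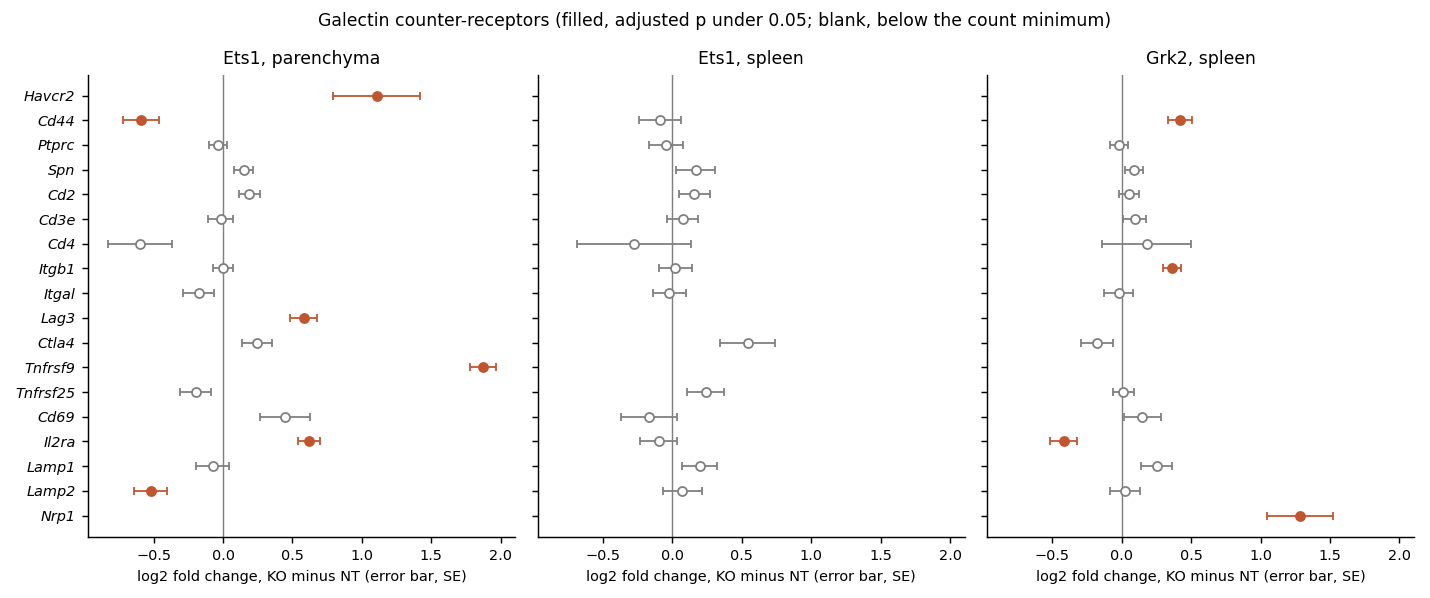
Log2 fold change of KO against control (x axis, shared) for the counter-receptors tested in each comparison (y axis); error bars are the SE of the limma fit, filled points have an adjusted p under 0.05 and a gene under the count minimum has no point. Filled points number 6 in the *Ets1* KO parenchyma, 0 in the *Ets1* KO spleen and 4 in the *Grk2* KO spleen.

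Of the enzymes that build the glycans galectins bind, 1 of 18 fell in *Ets1* KO cells of the parenchyma, beside 5.23% of all genes called there. *St3gal1*, which caps O-glycans with sialic acid, had 108, 158 and 91.4 normalized counts in control and 92.0, 98.1 and 61.2 in KO libraries (log2 -0.50 ± 0.15; adjusted p = 0.020, limma), but the groups overlapped and 6 of 13 alternatives lost the call, among them no block, DESeq2 and leaving out replicate number 2 or 3. In the spleen 1 of 17 rose in *Ets1* KO cells, beside 2.22% of all genes. *Gcnt1*, which branches O-glycans, had 42.7, 66.7 and 39.2 counts in control and 112, 103 and 94.9 in KO libraries (1.08 ± 0.19; adjusted p = 0.0033, limma), and its call was lost without replicate number 1 and with DESeq2. With *Grk2* editing, where 1.56% of all genes were called, 0 of 19 were called by limma, edgeR or DESeq2, and 4 had an unadjusted p under 0.05. The list medians were -0.02, 0.09 and 0.06.

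The partners of galectin-8 at damaged vesicles gave no limma call in any comparison, over 11, 11 and 10 genes tested. Unadjusted p-values under 0.05 numbered 1, 3 and 0, and edgeR called 1 gene in the *Ets1* KO spleen; DESeq2 called none. The list medians were -0.10, 0.33 and -0.03. *Sqstm1*, an autophagy receptor, had log2 fold changes of -0.24, 0.24 and 0.08 with adjusted p of 0.054, 0.34 and 0.81 (limma). Regulatory T cell genes, among which FGL2 is counted as a secreted effector, were listed with earlier results known, so nothing is read from their shares. In the parenchyma 3 of 6 were called, all higher in *Ets1* KO cells, beside 5.23% of all genes. They were *Lag3* and *Il2ra*, also on the list above, and the costimulator *Icos* (0.20 ± 0.06; adjusted p = 0.042, limma), whose call 5 of 13 alternatives lost, among them no block and leaving out replicate number 1 or 2. In the spleen 0 of 4 were called in *Ets1* KO cells by limma, edgeR or DESeq2, with 1 unadjusted p under 0.05, beside 2.22% of all genes. With *Grk2* editing 2 of 4 fell, beside 1.56% of all genes, *Il2ra* and *Tnfrsf18* (-0.60 ± 0.14; adjusted p = 0.0046, limma), and both calls were lost without replicate number 1 or 2, without the block and with DESeq2. *Foxp3*, the transcription factor that defines regulatory T cells, had at most 2.74 normalized counts in any library.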

How the data were processed

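Rat T-MBP libraries only were used. The authors aligned 50-base reads to Rnor_6.0 (release 102) with STAR 2.7.2b, counted genes with HTSeq-count 1.0.0 and divided by DESeq2 2.11.40.7 size factors (poscounts); the deposited signal values are these normalized counts, 1 table per comparison. Whole reads were recovered from them (100% of positive values within 0.01 of a multiple of 1 step), but replicates 1 and 2 of the *Ets1* KO parenchyma group share a step of 1.01, so close to 1 that rounding by the authors cannot be told apart from it, and their reads are less sure. Genes with a mean of at least 10 were tested on log2(value + 1) with limma 3.58.1 (lmFit, eBayes with trend, replicate number as a block, two-sided), with the Benjamini-Hochberg adjusted p under 0.05 as threshold; edgeR 4.0.16 and DESeq2 1.42.0 on the recovered reads, run in R 4.3.3, were alternatives. The fits were also run on simulated counts, with the same spread parameter for all genes and no replicate effect. Such counts cannot speak to the choice of trend or block. The block follows the authors' correction per animal; the labels do not say that numbers mark animals. The prior degrees of freedom of the trend were 22.0 (*Ets1* spleen), 141 (*Grk2* spleen) and infinite (parenchyma), so calls rest largely on the trend. Depth was 898092 to 2248258 reads per library and intervals were not computed.

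The genes and partner lists were chosen with earlier results of these data known. Named were the 5 genes, galectin family genes with a read, the edited genes, in each other list the called genes (at most 3 largest rises and 3 largest falls per table), and the 3 genes most alike to each of the 5 over 18 libraries; *Ptprc*, *Spn*, *Ctla4*, *Sqstm1*, *Foxp3* and *Fcgr2b* as well as galectin family genes without a read, fall outside this rule and were named after their values were seen. Marker lists covered CD4 T, myeloid, B, NK, erythroid and neural cells. In the NK list 2 of 6 genes were tested and 0 called by limma, edgeR or DESeq2 (1 unadjusted p under 0.05, in the parenchyma). Of the neural list *Nefl* was called in the *Ets1* KO spleen (log2 1.31, adjusted p = 0.0033, limma), while *Mog*, *Mag* and *Gfap* had no read there. *Mbp* was at 16.8 to 23.6 RPM in those KO libraries and 17.8 to 26.4 RPM in their controls. The neural list summed to 69.6 to 108 RPM in those KO libraries and 38.3 to 62.6 RPM in their controls. In the parenchyma it summed to 44.9 to 77.2 RPM in KO and 52.1 to 67.9 RPM in control libraries. The part of these markers in the results was not tested either. Of the 10 CD4 T cell markers 0 were called by limma, edgeR or DESeq2 (4, 1 and 2 unadjusted p under 0.05). Of the myeloid list 1, 1 and 0 genes, of the erythroid list 0, 2 and 0 and of the B cell list 0 genes were tested in the 3 tables, and 0 were called by limma, edgeR or DESeq2, with 0 unadjusted p under 0.05. The authors' own tables of fold changes, p-values and pathways were not used here, nor were 8 columns that hold values of human samples.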

Additional observations from a re-analysis of the deposited data

How the results depend on the processing

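Where a value could be computed, no log2 fold change of the 5 genes moved by more than the spread between its 3 pairs, or turned where it was called, under pseudocounts of 0.1 and 5, a minimum of 50, no filter, no replicate block, upper quartile or TMM scaling, eBayes without trend, edgeR, DESeq2 or leaving out a replicate number. The minimum of 50 left 3, 4 and 3 of the 5 genes, without *Lgals8* in any comparison and without *Lgals9* in the parenchyma and with *Grk2* editing. Near 0 the sign of *Lgals3* in the parenchyma and of *Lgals8* in both spleen comparisons and of *Lgals9* with *Grk2* editing turned as numbers were left out. The calls of *Fgl2* and *Lgals3* with *Grk2* editing were lost only without trend, that of *Fgl2* in the *Ets1* KO spleen without trend and without replicate number 1, and that of *Lgals9* in the parenchyma with no filter, without trend, with DESeq2 and without replicate number 1 or 2.

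Same-numbered control and KO libraries deviated together with r of -0.00 to 0.16 in the parenchyma, 0.08 to 0.18 and 0.01 to 0.14 in the spleen, not over 0.1 in every pair. With no replicate block the genes called went from 366, 155 and 109 (parenchyma, *Ets1* spleen, *Grk2* spleen) to 200, 71 and 19, and list genes called with *Grk2* editing from 5 to 2; the calls of the 5 genes were the same. Without trend 3, 0 and 0 genes and 0, 0 and 0 list genes were called, of 8, 2 and 5. DESeq2 gave 90, 50 and 9 genes and 4, 0 and 1 list genes. Without a filter 212 genes and 5 list genes were called in the parenchyma and 242 genes in the *Ets1* spleen; edgeR called 238 genes there, and a minimum of 50 left 60 with *Grk2* editing. Leaving out a replicate number gave 163 to 277, 3 to 232 and 6 to 50 genes (lowest without number 2, 1 and 2) and 4 to 10, 1 to 4 and 0 to 6 list genes. The *Fgl2* log2 difference of the *Grk2* spleen controls from the parenchyma was 0.81 with TMM scaling; the 25 alternative values between the spleen controls, chosen after seeing the data, moved by less than 1 SD. The causes were not tested. *Lgals8* in all libraries, and *Lgals9* outside the *Ets1* spleen, had under 50 reads and are limited by depth.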
